A study of Mus musculus with 6 samples.

Results

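The membrane channel genes described here are 8 genes of muscle excitability: the sodium channel genes Scn4a and Scn3b, the chloride channel gene Clcn1, and the potassium channel genes Kcnj2, Kcnj11, Kcnj12, Kcnh1 and Kcnn3. They were chosen by symbol, and all 8 were found among the 27179 genes of both comparison tables. RNA was sequenced from C2C12 cells, a line of immortalized mouse myoblasts, 48 h after differentiation was started with horse serum and insulin. All 3 groups were stably transfected with an shRNA construct: a scrambled shRNA that targets nothing, one against BAF250A, or one against BRD9. The BAF250A protein is the product of Arid1a and a subunit of the BAF complexes of the SWI/SNF family, which remodel chromatin, and BRD9 is a subunit of the ncBAF complexes. The series asks whether these forms are needed differently in skeletal muscle differentiation. Each group had 2 libraries, which the design text calls biological duplicates. The promoter of the shRNA constructs, the number of hairpins per target and whether a line was 1 clone are not given in the sources used here.

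The resting and active electrical states of a muscle fibre are set by these channels. The sodium channel carries the upstroke of the action potential, the chloride channel and the inward rectifier potassium channels hold the membrane near its resting potential, and the other potassium channels help the membrane return there. In cultured human myoblasts, a rise of potassium current through an EAG-type and then an inward rectifier channel precedes fusion. Mutations of SCN4A, CLCN1 and KCNJ2 cause human myotonias and periodic paralyses.

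The deposited tables give 1 mean normalized count per gene, and whole reads of each library were worked back from those means. Except at low means, candidate answers also had to lie near the deposited log2 fold change or beyond it in the same direction. A single answer was left for all 8 channel genes, and its direction is thus not independent of the deposited one. The libraries of a group are numbered 1 and 2 by size factor, with 1 the larger, because the letters of the labels could not be tied to them. Size factors, which scale with depth, were 1.58 and 1.09 for the scrambled libraries and between 0.773 and 0.841 for the 4 knockdown libraries. The scrambled libraries stood apart from each other: among genes with a mean of 50 or more, the median fold between them was 1.81, against 1.17 between the BAF250A libraries and 1.44 between the BRD9 libraries. They also stood apart from the knockdown libraries in their low read numbers: among genes with 1 to 20 reads, 57.5% and 56.3% had an even number in the scrambled libraries, against 77.3% to 80.3% in the knockdown libraries. That property and the shRNA cannot be told apart in these comparisons, and its part in the results was not tested. The targeted genes were lower in their own knockdown: per the authors' deposited table Arid1a stood at -1.95 (SE 0.48, adjusted Wald p = 0.000381) with BAF250A shRNA, and Brd9 at -1.60 (SE 0.54, adjusted Wald p = 0.0252) with BRD9 shRNA. Over all genes tested, the median log2 fold change was -0.18 with BAF250A and -0.15 with BRD9, and no called channel gene changed direction after centring on it.

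The promoters of 6 of the 8 genes were found in the RefSeq promoter table (GRCm38.p6, the assembly of mm10), and those of Scn4a, Kcnj12 and Clcn1 are shown. Scn4a and Kcnj12 are the genes whose response differed most between the knockdowns, and Clcn1 is the one with the richest set of muscle-type motifs. Each run is the 250 bases before the start site, 5′ to 3′ on the strand of the gene, with motif matches in capitals. The Scn4a window (chr11:106349391-106349640, minus strand) and the Kcnj12 window (chr11:61065554-61065803, plus strand) lie before start sites inside the longest gene models, and neither overlaps an annotated exon in GENCODE M21. The Clcn1 window is chr6:42286435-42286684 on the plus strand.
Scn4a: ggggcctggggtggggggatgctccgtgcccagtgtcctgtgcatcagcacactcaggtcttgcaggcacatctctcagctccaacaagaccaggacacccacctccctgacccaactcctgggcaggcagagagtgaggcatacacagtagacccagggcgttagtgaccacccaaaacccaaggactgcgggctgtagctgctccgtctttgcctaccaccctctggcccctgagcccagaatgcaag
Kcnj12: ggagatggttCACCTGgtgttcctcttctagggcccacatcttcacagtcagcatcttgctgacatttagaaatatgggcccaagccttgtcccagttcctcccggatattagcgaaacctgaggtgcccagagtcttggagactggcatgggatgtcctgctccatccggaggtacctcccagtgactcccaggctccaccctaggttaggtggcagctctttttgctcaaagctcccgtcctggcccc
Clcn1: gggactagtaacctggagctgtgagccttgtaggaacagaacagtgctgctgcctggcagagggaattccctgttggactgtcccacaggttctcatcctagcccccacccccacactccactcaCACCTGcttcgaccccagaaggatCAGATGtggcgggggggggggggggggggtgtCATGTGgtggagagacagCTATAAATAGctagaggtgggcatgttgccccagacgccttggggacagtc
Both strands were searched for the E-box CANNTG, bound by myogenic factors such as MyoD, and for its subset CAGCTG. They were also searched for the palindromic core of MEF2 sites, with its outer bases fixed and any base allowed in the middle. A stricter MEF2 pattern was not searched. The Clcn1 window held 3 E-boxes and 1 MEF2 core, CTATAAATAG, which ends 42 bases before the start site. The Kcnj12 window held 1 E-box, CACCTG, and the Kcnj2 window held CAGCTG and CACGTG. None of the motifs was found in the windows of Scn4a, Kcnh1 or Kcnn3. Among 32851 promoter windows of the same length, 66.2% held CANNTG, 13% held CAGCTG and 3.2% held the MEF2 pattern with free middle bases. An E-box alone is thus a common feature. A match is a sequence of letters and no evidence of binding.

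Levels between genes were compared as normalized counts per kb of merged exon. With scrambled shRNA the order was Kcnj2, Kcnj12, Scn4a, Kcnn3, Clcn1, Kcnh1, Scn3b and Kcnj11. Kcnj2, an inward rectifier that sets the resting potential, stood at 89.4 and 38.1 per kb in scrambled libraries 1 and 2. Kcnj12, its close relative, stood at 12.7 and 49.5 per kb, Scn4a at 21.3 and 35.6, and Kcnn3 at 20.5 and 25.3. Ranges of neighbours among these 4 genes overlapped, although Kcnj2 lay above Scn4a and Kcnn3 in both libraries. Clcn1, at 4.21 and 7.07 per kb, lay below all of them and above Kcnh1, at 1.99 and 0.998 per kb, without overlap. Scn3b, at 0.116 and 2.51 per kb, overlapped Kcnh1 and Kcnj11, and Kcnj11 was at 0 and 0.497.

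With BAF250A shRNA the order changed. Kcnj2 led at 171 and 156 normalized counts per kb, followed by Kcnn3 at 20.1 and 18.3, while Scn4a at 1.42 and 2.2 and Kcnj12 at 0.908 and 2.82 lay near Scn3b, at 0.914 and 2.84. With BRD9 shRNA, Scn4a had the highest mean, at 176 and 103 normalized counts per kb. Kcnj2 at 116 and 98.4, Kcnj12 at 29.4 and 116, and Kcnn3 at 87.9 and 46.4 followed, each with a range that overlapped the next.

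**Figure D1:**
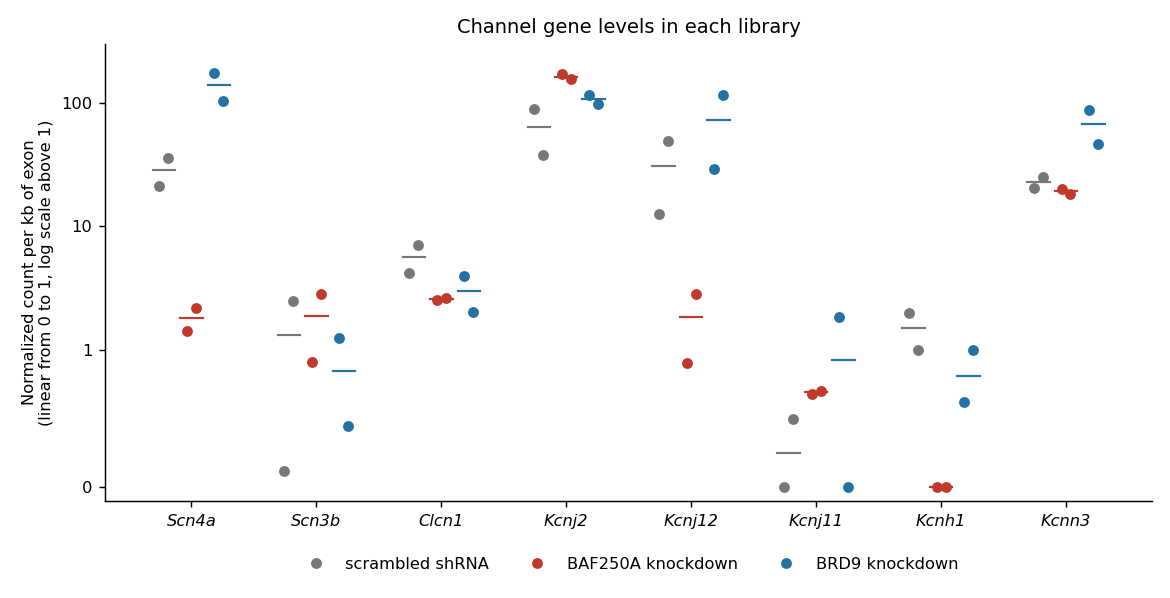
Normalized counts per kb of merged exon for the 8 channel genes in the 2 libraries of each group (points; short lines are group means), on an axis that is linear from 0 to 1 and logarithmic above. Scn4a and Kcnj12 drop to between 0.908 and 2.82 per kb with BAF250A shRNA, and Scn4a lies at 103 and 176 per kb with BRD9 shRNA.

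With BAF250A shRNA, 3 of the 7 channel genes that could be tested fell (Scn4a, Kcnj12 and Kcnh1), 1 rose (Kcnj2) and 3 did not pass. The calls are those of the authors' Wald test at a Benjamini-Hochberg adjusted p below 0.05, by which 28.7% of all genes tested were called, 11.2% higher and 17.5% lower. The median log2 fold change of the 7 genes was -1.03, against -0.18 for all genes tested. By the recovered reads, the knockdown and scrambled libraries did not overlap in 7 of the 8 genes, 5 lower and 2 higher. That holds for 70.5% of the 8107 genes with recovered reads that were tested in both comparisons (48.3% lower and 22.2% higher). Separation of the groups is thus common in this comparison. Kcnj11, which could not be tested with BAF250A, is among the 7 but not among the 8107. With an empirical null for the Wald statistic, 0 of the channel genes passed. Fewer differentiated cells and less RNA per cell cannot be told apart in bulk RNA.

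Scn4a (gene 110880, chr11:106318592-106353288, minus strand, mm10) encodes the pore-forming subunit of the skeletal muscle sodium channel. It had 236 and 274 reads with scrambled shRNA and 8 and 12 with BAF250A shRNA. As normalized counts these were 150 and 250 against 9.98 and 15.5, so both BAF250A libraries lay far below both scrambled ones. The authors' deposited table gave it a log2 fold change of -3.79 (SE 0.63, adjusted Wald p = 3.65e-08), which corresponds to 7.22% of the scrambled level. The log2 ratio of the recovered group means was larger in size, at -3.97. In a limma fit of the recovered reads, an alternative chosen after seeing the data that called 34.4% of its genes with BAF250A and 22% with BRD9, the call held with all libraries (adjusted p = 0.00184) and without each of the 6 libraries in turn (adjusted p from 0.00496 to 0.0484).

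Scn3b, which encodes a small accessory subunit of sodium channels, was near the limit of detection. Its reads were 1 and 15 with scrambled shRNA and 4 and 12 with BAF250A shRNA, and the groups overlapped. In the authors' deposited table its log2 fold change was 0.43 (SE 1.23, adjusted Wald p = 0.833), and its direction turned to -0.56 in limma without scrambled library 1.

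Clcn1 encodes the muscle chloride channel, whose current steadies the resting membrane. It had 36 and 42 reads with scrambled shRNA and 11 and 11 with BAF250A shRNA, or 22.9 and 38.4 against 13.7 and 14.2 normalized counts. The BAF250A libraries lay below both scrambled libraries, but per the authors' deposited table the log2 fold change of -1.03 (SE 0.84) did not pass the Wald test (adjusted p = 0.385). Clcn1 shares 445 exon bases with Fam131b on the opposite strand, and 7.41% of its 31-base words occur in another gene, so its reads are less certain than those of the other channel genes, with at most 0.902% shared words.

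The inward rectifiers Kcnj2 and Kcnj12 moved in opposite directions. Kcnj12 (gene 16515, chr11:61022564-61071131, plus strand) had 55 and 149 reads with scrambled shRNA and 2 and 6 with BAF250A shRNA, or 34.9 and 136 against 2.5 and 7.76 normalized counts. Both BAF250A libraries were lower than both scrambled ones, although the scrambled libraries differed 3.9-fold from each other. The authors' deposited table gave it a log2 fold change of -3.70 (SE 0.86, adjusted Wald p = 0.00017). In limma the direction held throughout, and the call was lost without scrambled library 1, scrambled library 2 or BAF250A library 1 (adjusted p = 0.0956, 0.232 and 0.108).

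Kcnj2 (gene 16518, chr11:111066164-111076821, plus strand) lies on the same chromosome as Scn4a and Kcnj12. It had 767 and 227 reads with scrambled shRNA and 746 and 657 with BAF250A shRNA, or 487 and 208 against 931 and 850 normalized counts. The BAF250A libraries were alike and lay above both scrambled libraries, which differed 2.35-fold. In the authors' deposited table its log2 fold change was 1.32 (SE 0.51, adjusted Wald p = 0.0369). In limma the adjusted p was 0.0457 with all libraries, 0.0208 without scrambled library 1, and between 0.0727 and 0.217 without any 1 of the other 5.

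Kcnj11 encodes the pore of the ATP-sensitive potassium channel of muscle and had too few reads for a test with BAF250A. Its reads were 0 and 2 with scrambled shRNA and 2 and 2 with BAF250A shRNA, a ratio of 3.39 per size factor (95% exact interval 0.486 to 37.5). The interval covers counting error only and takes reads as independent, although low read numbers in the knockdown libraries were mostly even. It may thus be too narrow. A difference was not detectable at this depth.

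Kcnh1 (gene 16510, chr1:192190774-192510159, plus strand) encodes the EAG channel, a voltage-gated potassium channel known from myoblasts that are about to fuse. It had 23 and 8 reads with scrambled shRNA and 0 and 0 with BAF250A shRNA. Against a floor of 3 reads over the group, its level was at least 5.75-fold lower if each read is an independent count. Low read numbers in the knockdown libraries were mostly even, so the floor may be too low, which was not tested. The authors' deposited table gives a log2 fold change of -3.70 (SE 1.46, adjusted Wald p = 0.041), and with no filter on low counts the adjusted p was 0.0519. In limma with all libraries the adjusted p was 0.00746. Without 1 library, the log2 value ran from -3.96 to -3.06. It stayed at -3.51 without any 1 of the knockdown libraries, because both BAF250A libraries had 0 reads and the BRD9 libraries do not enter it. Leaving those out is thus no check of the size of the change.

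Kcnn3 (gene 140493, chr3:89520164-89675132, plus strand) encodes a small-conductance potassium channel opened by calcium, which is present in developing and denervated muscle. It had 337 and 289 reads with scrambled shRNA and 168 and 148 with BAF250A shRNA. As normalized counts these were 214 and 264 against 210 and 191, so the levels nearly met. The authors' deposited table gave it a log2 fold change of -0.25 (SE 0.48, adjusted Wald p = 0.752). Called changes with BAF250A began at 1.02 in size, so the precision does not reach a change like this one.

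With BRD9 shRNA, 2 of the 8 channel genes rose (Scn4a and Kcnn3), 0 fell and 6 did not pass. By the same rule, 14.4% of all genes tested were called with BRD9, 5.11% higher and 9.33% lower. The median log2 fold change of the 8 genes was 0.76, against -0.15 for all genes tested. The groups did not overlap in 4 of the 8 genes, 3 higher (Scn4a, Kcnj2, Kcnn3) and 1 lower (Clcn1). Of the 8107 genes with recovered reads that were tested in both comparisons, 58.7% did not overlap (15.9% higher and 42.7% lower). With the empirical null 0 of the 8 passed.

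Scn4a had 1091 and 590 reads with BRD9 shRNA. On the scale of the BRD9 table this was 1297 and 754 normalized counts, against 160 and 256 in the scrambled libraries, so both BRD9 libraries lay well above both scrambled ones. In the authors' deposited table its log2 fold change was 2.20 (SE 0.54, adjusted Wald p = 0.00062), which corresponds to a 4.61-fold increase. The log2 ratio of the recovered group means was 2.30. In limma the adjusted p was 0.0171 with all libraries, and the call was lost without BRD9 library 1, scrambled library 1 or scrambled library 2 (adjusted p = 0.0929, 0.117 and 0.0903), while the log2 value stayed between 1.89 and 2.67.

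Kcnn3 had 807 and 396 reads with BRD9 shRNA, or 959 and 506 normalized counts against 228 and 271 in the scrambled libraries. The BRD9 libraries differed 1.9-fold from each other and both were higher. The authors' deposited table gave it a log2 fold change of 1.49 (SE 0.54, adjusted Wald p = 0.0402). In limma the adjusted p was 0.0474 with all libraries and between 0.0554 and 0.202 without any 1 of the 6, so it passed only with all libraries.

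Kcnj12 was uneven with BRD9 shRNA. It had 71 and 260 reads, or 84.4 and 332 normalized counts against 37.2 and 139 with scrambled shRNA, and the groups overlapped. BRD9 library 1 was the lower one for Kcnj12 but the higher one for Scn4a and Kcnn3. In the authors' deposited table the log2 fold change of 1.14 (SE 0.73) did not pass (adjusted Wald p = 0.354). The 3.94-fold difference between the BRD9 libraries was at least as large as that of 96.4% of 1953 genes of like level, and the log2 ratio of the recovered means went from 1.24 to -0.07 without BRD9 library 2.

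The other 5 genes did not pass with BRD9. Kcnj2 had 554 and 438 reads, or 659 and 560 normalized counts against 519 and 212 with scrambled shRNA, above both. Its log2 fold change per the authors' deposited table was 0.70 (SE 0.56, adjusted Wald p = 0.487), and it passed in limma only without scrambled library 1 (adjusted p = 0.0468). Clcn1 had 19 and 9 reads, or 22.6 and 11.5 normalized counts against 24.4 and 39.3, with -0.79 (SE 0.85, adjusted Wald p = 0.632) per the authors' deposited table. Kcnh1, which had no reads with BAF250A shRNA, had 4 and 6 reads with BRD9 shRNA, or 4.76 and 7.67 normalized counts against 15.6 and 7.49, and the groups overlapped. Its log2 fold change per the authors' deposited table was -0.70 (SE 1.10, adjusted Wald p = 0.763). Scn3b had 6 and 2 reads, with -0.40 (SE 1.24, adjusted Wald p = 0.891) per the authors' deposited table. Kcnj11 had 6 and 0 reads, a ratio of 4.7 per size factor (95% exact interval 0.841 to 47.7, with reads taken as independent). Its log2 fold change per the authors' deposited table was 0.83 (SE 1.32, adjusted Wald p = 0.769). That is 1.77-fold, a smaller change than the ratio of reads. Scn3b and Kcnj11 had at most 15 reads in any of the 6 libraries.

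**Figure D2:**
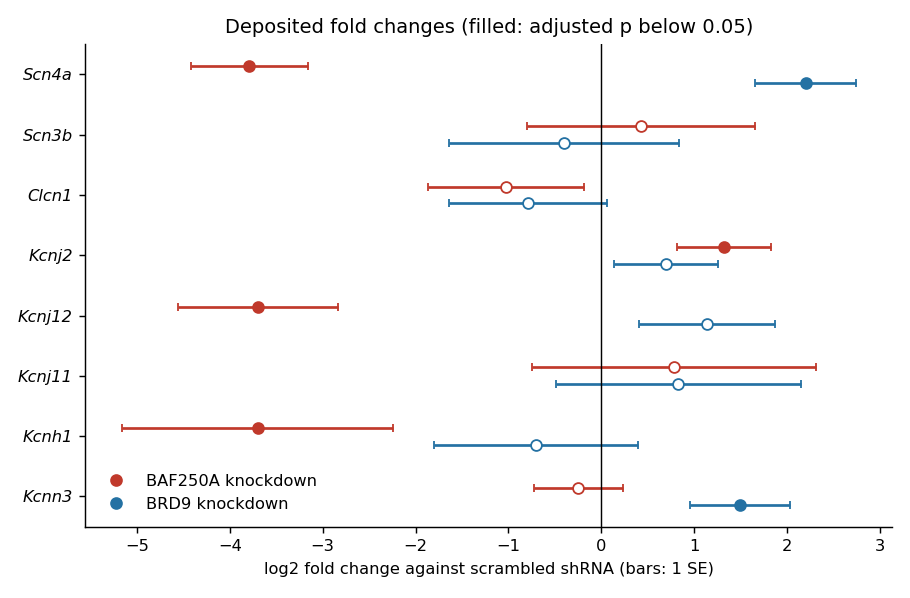
Log2 fold changes of the 8 channel genes against scrambled shRNA per the authors' deposited tables, with bars of 1 SE; filled points have an adjusted p below 0.05. Scn4a lies at -3.79 with BAF250A and 2.20 with BRD9, and Kcnj2 and Clcn1 lie on the same side of 0 in both.

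The knockdowns share the scrambled libraries, so the difference between them was tested directly, as the BRD9 minus the BAF250A log2 fold change over the root of the summed squared errors. Of the 7 channel genes tested in both tables, 2 were higher with BRD9 than with BAF250A shRNA (Scn4a and Kcnj12) and 0 were lower. Over all 16311 genes tested in both, 2.54% passed, with 1.99% of all tested genes higher with BRD9 and 0.552% lower, so most calls in this comparison go the same way as these 2 genes. For Scn4a the difference was 6.0 (SE 0.83, 95% interval 4.37 to 7.63), with a z-test p of 7.28e-10 after Benjamini-Hochberg adjustment. For Kcnj12 it was 4.83 (SE 1.13, interval 2.61 to 7.05, adjusted p = 0.00172). In both genes the 2 BRD9 libraries lay above the 2 BAF250A libraries, at 71 or more reads against 12 or fewer. The share of all genes that separate in this way was not counted, so this only describes genes already picked by the test.

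The other differences did not pass this test. Kcnn3 differed by 1.74 (interval 0.32 to 3.15, z test, adjusted p = 0.308). It passed only in a less strict z test, which took the larger of the standard errors alone as the error (adjusted p = 0.0248). Kcnh1 differed by 2.99 (interval -0.59 to 6.57, adjusted p = 0.851), and passed in limma with a pseudocount of 0.5 (adjusted p = 0.0486). The intervals of Kcnj2 (-0.62, from -2.11 to 0.87), Clcn1 (0.24, from -2.11 to 2.59) and Scn3b (-0.82, from -4.26 to 2.61) included 0 and also changes of several fold, so these genes are not shown to respond alike. In limma with all libraries, which called 5.25% of its genes for this difference, Scn4a and Kcnj12 passed (adjusted p = 0.00596 and 0.0311). Without 1 library, Scn4a was lost without BAF250A library 1 (0.0515) or BRD9 library 1 (0.0568), and Kcnj12 was lost in all 6 fits (adjusted p from 0.0734 to 0.17), with log2 differences of 3.89 to 5.85.

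**Figure D3:**
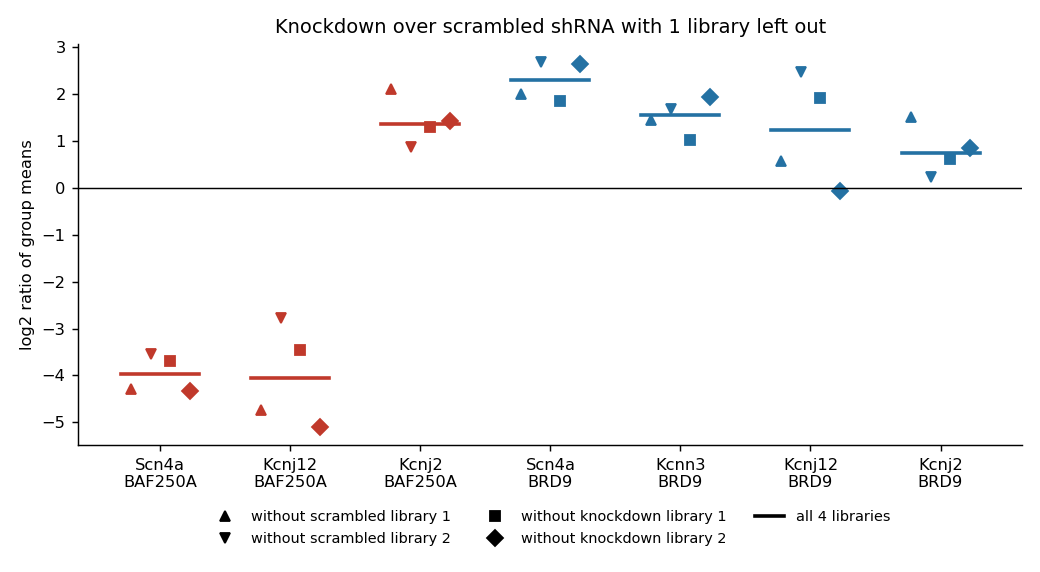
Log2 ratio of the group means of recovered normalized counts, knockdown over scrambled, for the genes and knockdowns named on the axis: bars use all 4 libraries, and symbols leave out 1 library each. Scn4a keeps its sign in every case, from -4.33 to -3.55 with BAF250A and from 1.86 to 2.68 with BRD9, while Kcnj12 with BRD9 runs from -0.07 to 2.48.

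Related channel genes were described from lists of the same families, without the 8 genes above. Their counts are to be read beside the shares of all genes tested. These were 11.2% higher and 17.5% lower with BAF250A, and 5.11% higher and 9.33% lower with BRD9. Of 8 other sodium channel genes tested with BAF250A, 5 fell and 0 rose, with a median log2 fold change of -2.12. The strongest were Scn9a, a sodium channel of sensory neurons, at -5.73 (SE 1.30), and Scn3a at -3.01 (SE 1.22) per the authors' deposited table. With BRD9, 1 of 10 rose and 1 fell (median -0.50): Scn7a at 2.42 (SE 0.70) and Scn3a at -4.06 (SE 1.26) per the authors' deposited table. Scn7a, an atypical sodium channel, had 212 and 37 reads with scrambled, 12 and 12 with BAF250A and 714 and 194 with BRD9 shRNA, and differed between the knockdowns by 4.72 (SE 1.04, z test, adjusted p = 0.000664).

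Chloride channels and transporters gave 3 lower and 0 higher of 21 tested with BAF250A (median -0.36). These were Clcn5 at -1.81 (SE 0.51), an endosomal chloride exchanger, Ano5 at -2.11 (SE 0.62), an anoctamin mutated in a limb-girdle muscular dystrophy, and Lrrc8d at -1.61 (SE 0.49) per the authors' deposited table. With BRD9, 3 of 22 rose and 0 fell (median 0.40), among them Ano1, a calcium-activated chloride channel, at 3.30 (SE 0.73), and the cotransporter gene Slc12a2 at 2.11 (SE 0.55) per the authors' deposited table. Clcn5 also differed between the knockdowns, by 2.75 (SE 0.76, z test, adjusted p = 0.0164).

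Potassium channels moved both ways. Of 4 other inward rectifier and sulphonylurea receptor genes tested with BAF250A, 2 rose and 0 fell (median 1.51), namely Kcnj15 at 3.65 (SE 0.77) and Kcnj16 at 1.79 (SE 0.69) per the authors' deposited table, while 0 of 9 passed with BRD9. Of 17 other voltage-gated potassium channel genes, 3 rose and 3 fell with BAF250A (median 0.19), among them Kcnab2, a beta subunit, at 3.57 (SE 0.55), Kcnh2 at 2.61 (SE 0.45), Kcnc1 at -2.77 (SE 0.62) and Kcnh7 at -5.88 (SE 1.29) per the authors' deposited table. Kcnh2 and Kcnh7 belong to the ERG branch of the EAG family, as relatives of Kcnh1. With BRD9, 2 of 21 rose (median 0.03), among them Kcnh2 at 2.04 (SE 0.51) per the authors' deposited table.

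Of 6 other potassium channel genes opened by calcium or sodium, 3 rose and 0 fell with BAF250A (median 1.91), and 0 of 7 passed with BRD9. They were Kcnma1, the large-conductance channel, at 3.90 (SE 0.67), its subunit Kcnmb1 at 2.61 (SE 0.95) and Kcnt2 at 2.84 (SE 0.98) per the authors' deposited table. Kcnma1 had 18 and 5 reads with scrambled shRNA and 137 and 87 with BAF250A shRNA, whereas Kcnn3 of the same class was nearly level there. Of 8 two-pore channel genes, 3 rose and 1 fell with BAF250A (median 0.44), with Kcnk10 at 4.58 (SE 1.03), Kcnk6 at 4.53 (SE 1.41), Kcnk12 at 3.20 (SE 0.59) and Kcnk13 at -4.34 (SE 1.07) per the authors' deposited table. With BRD9, 1 of 7 passed: Kcnk13 rose by 2.76 (SE 0.65) per the authors' deposited table, and it differed between the knockdowns by 7.10 (SE 1.25, z test, adjusted p = 4.25e-06). Like Scn4a, Kcnk13 was thus lower with one shRNA and higher with the other, at 45 and 68 reads with scrambled, 2 and 0 with BAF250A and 148 and 429 with BRD9 shRNA.

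The sodium pump, which restores the ion gradients that these channels use, gave 3 higher and 2 lower of 9 genes with BAF250A (median 0.14) and 2 higher of 10 with BRD9 (median 1.15). With BAF250A, Fxyd1 stood at 2.91 (SE 0.78), Atp1b2 at 2.90 (SE 0.50) and Atp1b1 at -1.25 (SE 0.51) per the authors' deposited table. With BRD9, Atp1b2 stood at 2.72 (SE 0.61) and Atp1b3 at 1.29 (SE 0.47) per the authors' deposited table. Of the proteins that anchor or regulate channels, 2 of 11 rose and 2 fell with BAF250A (median 0.07), with Sntb1, a syntrophin, at -2.51 (SE 0.55), Ank1, an ankyrin, at -1.57 (SE 0.47), Dlg1 at 1.44 (SE 0.52) and Rangrf at 1.70 (SE 0.49) per the authors' deposited table. With BRD9, 1 of 12 rose, Rangrf at 1.77 (SE 0.54) per the authors' deposited table. Across the 6 channel families together, 11 rose and 12 fell of 64 genes with BAF250A, and 7 rose and 1 fell of 76 with BRD9. Among all genes tested, 11.2% rose and 17.5% fell with BAF250A, and 5.11% rose and 9.33% fell with BRD9. No family was tested against these shares.

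**Figure D4:**
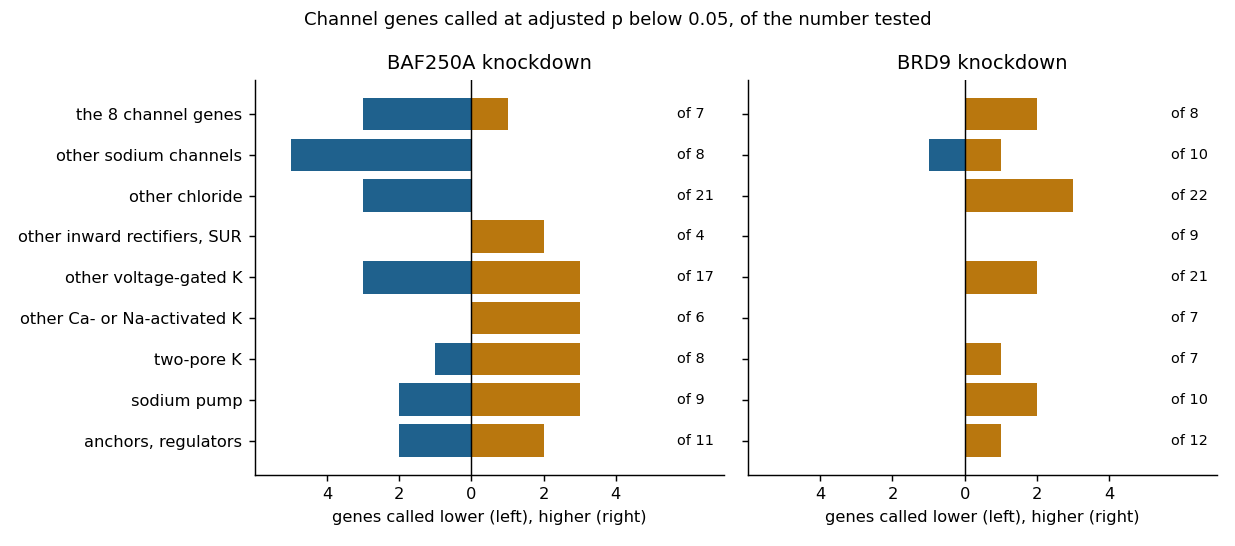
Number of genes called lower (bars to the left) and higher (bars to the right) at an adjusted p below 0.05 in each channel family and in each knockdown, with the number tested at the right. With BAF250A the other sodium channel genes are called only lower (5 of 8) and the other calcium- or sodium-activated potassium channel genes only higher (3 of 6). Of all genes tested with BAF250A, 17.5% are called lower and 11.2% higher.

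Marker genes of muscle and of other cell types were described beside the channel genes. Of 8 muscle markers, all detected, 6 fell and 0 rose with BAF250A (median -2.89), including Ckm at -5.24 (SE 0.55) and Myh3 at -4.38 (SE 0.44) per the authors' deposited table. With BRD9 their median was -0.02, and only Myod1 passed, at 1.67 (SE 0.53) per the authors' deposited table. In the z test between the knockdowns, 5 of the 8 were higher with BRD9 than with BAF250A shRNA and 0 lower (median 2.96). Among all genes tested in both, 1.99% were higher. The called differences ran from 2.77 (Myog) to 4.82 (Mymk), so a difference like that of Scn4a and Kcnj12 is also seen in general muscle genes. Of 15 markers of other cell types, 14 had reads and Snap25 was at 0 in all libraries. Their summed level was 1223 and 1179 normalized counts with scrambled, 162 and 142 with BAF250A, and 1602 and 678 with BRD9 shRNA, and 4 of 8 tested fell with BAF250A (Myh6, Map2, Kdr and Cd68). With BRD9, 2 of 11 rose and 3 fell, and the sum hides opposite changes. Per the authors' deposited table, Kdr stood at -5.32 (SE 0.78), Cd68 at -2.46 (SE 0.62), Myh6 at -1.53 (SE 0.55) and Tnni3 at 2.50 (SE 0.74). Map2, the other gene that rose, had 1161 and 216 reads in BRD9 libraries 1 and 2. The part of these markers in the results for the channel genes was not tested.

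The genes with the most similar pair of fold changes were sought among 11496 genes with a mean of 100 or more in both tables. The distance was taken over the 2 log2 fold changes, which share their control libraries, so it is a description. Nearest to Scn4a was Actn2, the alpha-actinin of the sarcomere's Z-disc, at a distance of 0.633, with -4.33 (SE 0.55) and 2.53 (SE 0.63) with BAF250A and BRD9 per the authors' deposited tables. Next was Myom3, a protein of the M-band, at 0.868, with -3.75 (SE 0.46) and 1.34 (SE 0.55) per the authors' deposited tables. Nearest to Clcn1 were Ccdc57 and the creatine transporter gene Slc6a8, at distances of 0.00575 and 0.00823. Slc6a8 stood at -1.04 (SE 0.43) and -0.79 (SE 0.48) per the authors' deposited tables. The errors of Clcn1 are many times these distances, so its neighbours are not well determined.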

How the data were processed

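RNA-seq of 6 libraries, 2 per group, was used through 2 deposited comparison tables. HISAT and StringTie, Bowtie and RSEM, DESeq2 and the build mm10 are named in the submitters' processing notes, with no role or version. Per the file headers, the authors deposited for each gene a mean normalized count (a signal over 4 libraries), a log2 fold change with its standard error, a Wald score, a p-value and an adjusted p-value. A gene was called at an adjusted p below 0.05, as deposited.

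Each mean is a sum of whole reads times 1 step per library. Solving both tables together gave 1 set of reads for 12375 of 12383 genes with means up to 700, and these hold 920495 to 2216741 reads per library. Except at low means, the deposited log2 fold changes limited the candidate sets. Libraries present in both tables are the scrambled ones. The total depth of each library was not analysed here. Because p-values rest on 2 libraries per group, precision is limited, and an exact permutation test of 2 against 2 cannot go below 0.333. The exact intervals of Kcnj11 cover counting error only, with reads taken as independent, whereas the intervals of the difference between knockdowns rest on the deposited standard errors.

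The difference of the knockdowns was a z test (scipy 1.17.1), two-sided. It ignores the shared controls and is conservative. As an added alternative, limma 3.58.1 (R 4.3.3) was fitted to log2(normalized count + 1) of 8107 genes, with 3 residual degrees of freedom. A fold change on that scale understates the change of low genes. Leave-one-out fits assume that a lone library varies like the other groups. Both tests were checked on simulated data. The simulation for limma gave all groups the same dispersion, unlike these libraries, so it does not cover the unequal spread between groups. Exon lengths and coordinates are from GENCODE M21, promoters from RefSeq.

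The channel genes and lists were chosen with earlier results of these data known. Named genes are all 8 channel genes, every called gene of a list with up to 4, otherwise the 2 most negative and 2 most positive called values of each table. Some genes that this rule names are not reported here. A planned comparison of protein sequences was not done.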

Additional observations from a re-analysis of the deposited data

Results flagged for a closer look

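For Scn4a and Kcnj12 the responses to the knockdowns differed by the z test of the difference. Scn4a was lower with BAF250A and higher with BRD9 shRNA, a difference of 6.0 on the log2 scale. For Kcnj12 the difference was 4.83, with the value for BRD9 alone not past its own test. Groups of 2 libraries are too small for a check of single outlying libraries.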

How the results depend on the processing

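All called channel genes kept their direction in every setting run. Settings on recovered reads are not independent of that direction, because except at low means the deposited fold changes helped to recover the reads. Over all genes, the BAF250A calls went from 4729 to 1565 with Bonferroni adjustment and 693 with an empirical null, the BRD9 calls from 2483 to 940 and 873, and the calls of the difference from 414 to 123 with Bonferroni, 271 at a mean of 100 or more and 983 with the larger standard error. Of the 4 channel genes called with BAF250A, 1 passed with Bonferroni. At a mean of 100 or more 2 passed, while Kcnj12 and Kcnh1 lay below that mean and were not tested. At an adjusted p below 0.01, 2 passed, and with the empirical null 0 (Scn4a 0.146). Of the 2 with BRD9, these counts were 0 with Bonferroni, 1 at 0.01 and 0 with the empirical null (Scn4a 0.0989), and 1 in limma with a pseudocount of 0.5. Of the 2 for the difference, 1 passed with Bonferroni and 1 at a mean of 100 or more, where Kcnj12 was not tested. In the z test with the larger standard error 3 passed (Kcnn3 gained, adjusted p = 0.0248). In limma with a pseudocount of 0.5 there were also 3 (Kcnh1 gained, adjusted p = 0.0486). In limma the calls of the difference among genes with recovered reads went from 219 by the deposited errors to 426, and to 370 with a pseudocount of 0.5. Leaving out 1 library gave 1105 to 2738 genes with BAF250A (2611 by the deposited test), 747 to 1386 with BRD9 (1488) and 5 to 190 for the difference (219). The channel genes among them numbered 2 to 3, 0 to 1 and 0 to 1. The fits without 1 library are limma fits with fewer samples, and limma with all libraries called 2789, 1782 and 426 genes. Scn3b with BAF250A ran from -0.56 (without scrambled library 1) to 2.61 (without scrambled library 2). With BRD9 it reversed to 0.08 in limma, 0.21 with the smaller pseudocount, and between 0.08 and 1.67 without BAF250A library 1 or 2, BRD9 library 2 (0.67) or scrambled library 2, with a lowest value of -1.50 without scrambled library 1. Clcn1 for the difference ran from -0.32 without BRD9 library 1 to 0.59. The cause was not tested. A refit with a count model was not run. No paired analysis was possible because the letters of the labels could not be tied to the recovered libraries.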

Other observations

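Of the 5 sodium channel genes beside Scn4a that fell with BAF250A shRNA, 4 are neighbours on chromosome 2 of GRCm38.p6, a feature singled out after the values were seen. Scn3a begins at 65457118, Scn2a at 65620764, Scn9a at 66480080 and Scn7a at 66673426, and Kcnh7, which also fell, begins at 62693410 on the same chromosome. Scn9a had 118 and 19 reads with scrambled, 0 and 0 with BAF250A, and 12 and 6 with BRD9 shRNA. Kcnh7 had 127 and 23, 0 and 0, and 12 and 6 reads in the same order. In both genes most control reads came from scrambled library 1, and Scn7a, at 212 and 37 control reads, shared that imbalance. Scn4a, Kcnj2 and Kcnj12 lie on chromosome 11, but far apart, and their control reads were not skewed one way.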
